A study of Mus musculus with 8 samples.

Results

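The class 3 semaphorins and the receptors listed with them comprised 10 genes: the secreted ligand genes Sema3a, Sema3b, Sema3c, Sema3d, Sema3e and Sema3f, the neuropilin genes Nrp1 and Nrp2, and the plexin genes Plxnd1 and Plxna2. They were found by mouse Ensembl identifier among the 52636 genes of the deposited tables, and all 10 were present. The study asked how the loss of OSCAR, a receptor for collagen, alters the response of mouse knee articular cartilage to surgical destabilization of the medial meniscus (DMM), an operation that induces osteoarthritis (OA). RNA was sequenced in 8 libraries, 1 for each combination of genotype (C57BL/6J WT or Oscar-/- on C57BL/6), surgery (sham or DMM) and time after surgery (2 or 4 weeks). The sample records call the tissue articular cartilage of knee joints and give an age of 10 weeks in every library, and the mice were male. Each library combined 10 articular cartilages, which leaves every condition without a replicate and hides the spread between mice. No tissue-specific driver is described for the Oscar deletion, and both genotypes share the C57BL/6 background. At 4 weeks the WT and Oscar-/- libraries carried different sequencing lane numbers in their deposited names, so that lane and genotype cannot be told apart there, whereas the libraries of 2 weeks shared a lane.

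Class 3 semaphorins are secreted guidance proteins. They bind neuropilins, which have short cytoplasmic tails and pass the signal on through plexins, whose intracellular part acts on small GTPases and the cytoskeleton. Neuropilins are also co-receptors for vascular endothelial growth factors. In the skeleton of the mouse these proteins are known for guiding nerves and vessels and, in the case of Sema3a, for restraining osteoclasts.

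The 10 genes were listed with results from these libraries in view. Sema3d was known for a DMM response that differed between the genotypes, and which values led to the other genes is not recorded. That contrast is therefore given below as a description, with no test for the 10 genes.

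The ligand genes lie in 2 groups in the genome (GENCODE M21 coordinates on GRCm38). Sema3d (12383385 to 12588948), Sema3a (13125414 to 13602565), Sema3e (14025276 to 14256689) and Sema3c (17574281 to 17730268) all lie on the plus strand of chromosome 5, within 5.35 Mb. Sema3b (107597674 to 107609229) and Sema3f (107681500 to 107710475) lie on the minus strand of chromosome 9 with 72.3 kb between them. Nrp2 (62703285 to 62818695) and Plxna2 (194618218 to 194816869) are on chromosome 1, Nrp1 (128358604 to 128503363) is on chromosome 8 and Plxnd1 (115954811 to 115995005) is on chromosome 6.

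RefSeq promoters on GRCm38.p6, from 250 bases before to 50 bases after the start site, were matched for 8 of the 10 genes. The promoters of Sema3d and Sema3c, the best-counted ligand genes with the lowest values of the genotype contrast described below, and of Nrp2, the more abundant neuropilin gene, are shown because genes with a contrast of the same sign had start regions of unlike base composition. They are written from 5′ to 3′ on the gene's strand, with matches to the searched motifs in capitals on either strand. They lie at chr5:12382916-12383215, chr5:17574566-17574865 and chr1:62703067-62703366, all on the plus strand.
Sema3d: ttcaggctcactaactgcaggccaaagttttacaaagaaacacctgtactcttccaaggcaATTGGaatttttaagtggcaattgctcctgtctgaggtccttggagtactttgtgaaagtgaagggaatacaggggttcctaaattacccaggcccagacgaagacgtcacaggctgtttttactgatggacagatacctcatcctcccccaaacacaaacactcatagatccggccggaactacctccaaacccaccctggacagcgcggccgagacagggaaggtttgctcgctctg
Sema3c: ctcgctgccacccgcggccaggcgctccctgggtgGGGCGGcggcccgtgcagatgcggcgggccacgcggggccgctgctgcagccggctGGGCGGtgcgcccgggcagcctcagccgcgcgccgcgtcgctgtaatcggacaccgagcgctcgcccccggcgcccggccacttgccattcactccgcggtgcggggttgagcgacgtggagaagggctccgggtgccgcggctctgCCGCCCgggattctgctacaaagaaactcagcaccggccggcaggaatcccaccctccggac
Nrp2: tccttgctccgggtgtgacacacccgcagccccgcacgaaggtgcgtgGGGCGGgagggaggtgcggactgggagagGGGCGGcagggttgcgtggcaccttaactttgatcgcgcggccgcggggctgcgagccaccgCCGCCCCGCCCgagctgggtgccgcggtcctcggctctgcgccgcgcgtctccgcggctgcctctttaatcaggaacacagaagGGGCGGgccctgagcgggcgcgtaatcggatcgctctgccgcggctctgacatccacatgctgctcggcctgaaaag
The Sema3d promoter had a GC content of 49.7% and 8 CpG dinucleotides, close to the median of 52.7% and 7 over 32851 mouse promoters. The Sema3c promoter had 75.7% and 42, and the Nrp2 promoter had 70.7% and 37. On both strands 6 motifs were searched, none of which is contained in another: the TATA box TATAAA, the CCAAT box CCAAT, the GC box GGGCGG, the AP-1 site TGANTCA, the E-box CACGTG and the RUNX core TGTGGT. The GC box was found in 6 of the 8 promoters, against 35.7% of all promoters, with 3 matches in Sema3c, 5 in Nrp2 and none in Sema3d. The only match in the Sema3d promoter was a CCAAT box, which 37.4% of all promoters hold. The TATA box and the AP-1 site were found in none of the 8, against 13.6% and 7.81% of all promoters, the E-box in Sema3e alone (7.15%) and the RUNX core in Sema3a alone (16.8%). The promoter matched for Sema3a, at chr5:13396534-13396833, lies inside the gene span given above, at a start site downstream of the gene start. The same holds for those of Sema3c, Nrp1 (chr8:128358823-128359122) and Plxna2 (chr1:194619579-194619878).

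The libraries held 13189181 to 18533609 expected counts, estimates of reads per gene that need not be whole. Levels are compared between genes as TPM, the length-corrected share of a library's transcripts. Hemoglobin transcripts took 26.5% to 37.7% of TPM, so that ratios between libraries are also given on counts scaled by the trimmed mean of M-values (TMM). Cartilage markers were low, with Col2a1 at 59.5 to 209 TPM and a list of 15 chondrocyte genes at 827 to 1899 TPM in sum, beside 65822 to 106230 TPM for 9 neutrophil genes. Fewer cells of a type and less RNA per cell cannot be told apart in such mixed tissue. Oscar had 42 to 118 expected counts in the WT libraries and 0 in all 4 Oscar-/- libraries.

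Plxnd1, which encodes a plexin found mainly on endothelial cells and bound directly by Sema3e, was the most abundant of the 10 genes. It took 39.2% to 58.3% of their summed TPM. The order of the medians over the 8 libraries was Plxnd1 (28.2 TPM), Nrp2 (9.87), Nrp1 (5.53), Sema3f (3.88), Sema3c (2.73), Sema3d (1.57), Sema3a (1.39), Plxna2 (1.32), Sema3b (1.29) and Sema3e (0.52). Neighbours from Sema3d to Sema3b in this order overlapped widely in their values across libraries, as did Sema3f and Sema3c. Nrp2 was 1.43 to 2.40 times as high as Nrp1 in every library. Of the 10 genes, 9 exceeded 1 TPM in some library and entered the tests with 12538 protein-coding genes in all. Sema3e, at 0.26 to 0.90 TPM and 30 to 90 expected counts, did not.

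**Figure D1:**
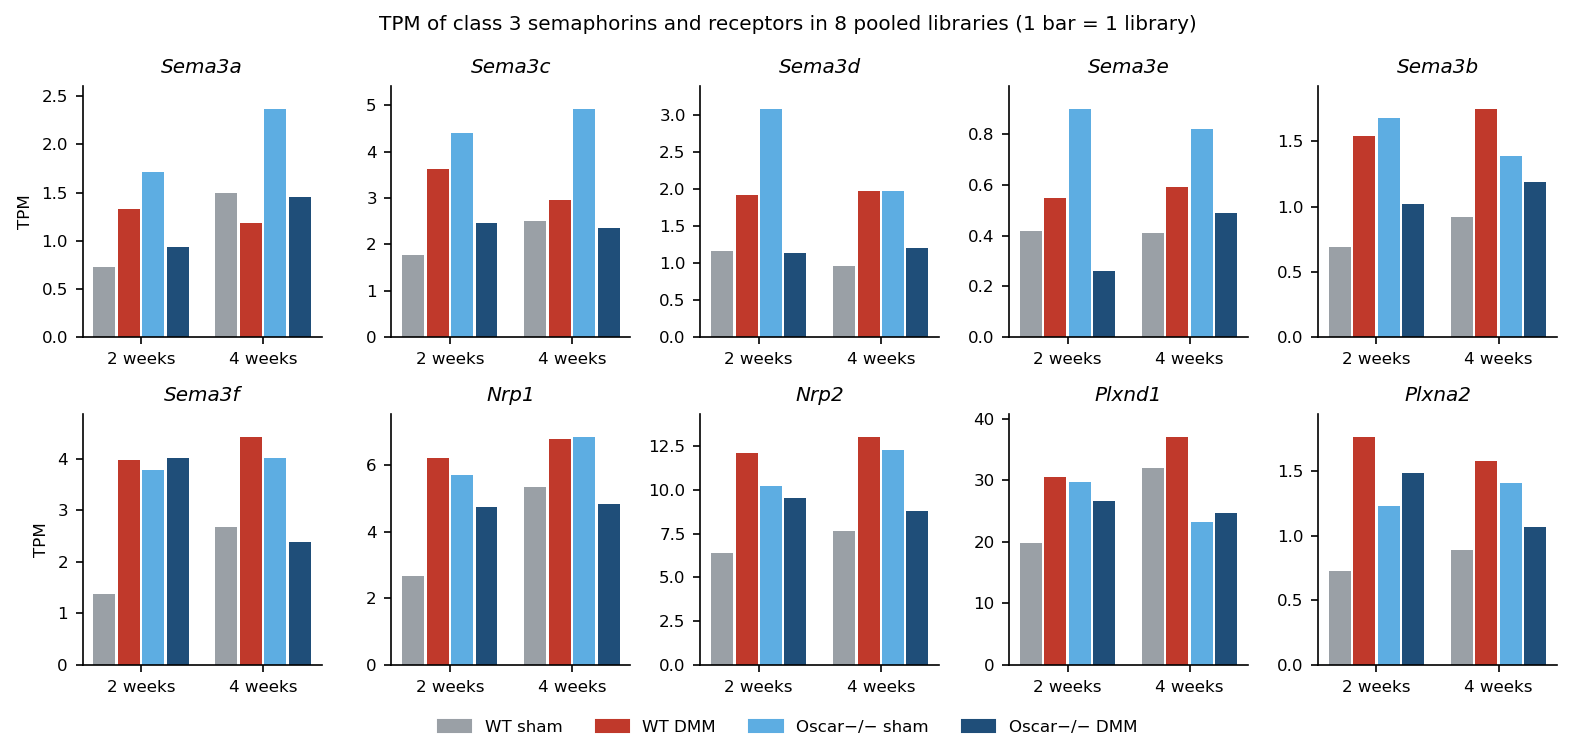
TPM (vertical axes, from 0, a separate scale for each gene) of the 10 genes in the 8 libraries, grouped by week after surgery. Each bar is 1 pooled library with no replicate. The 4 ligand genes of chromosome 5 are highest after sham surgery in Oscar-/- at both weeks, where Sema3d ties with WT DMM at 4 weeks at 1.98 TPM.

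The ligand genes of chromosome 5 shared a pattern. At 2 weeks the sham and DMM libraries of WT gave 1.17 and 1.92 TPM for Sema3d, and those of Oscar-/- gave 3.09 and 1.14 TPM. The WT libraries of 4 weeks gave 0.96 and 1.98 TPM and the Oscar-/- libraries 1.98 and 1.21 TPM. DMM was thus above sham in WT and below it in Oscar-/- at both weeks, and the highest value stood in an Oscar-/- sham library. The log2(DMM/sham) ratio of Sema3d on TPM was 0.71 (counting SE 0.15) in WT and -1.44 (SE 0.16) in Oscar-/- at 2 weeks. At 4 weeks it was 1.04 (SE 0.19) and -0.71 (SE 0.16). The counting SE covers the sampling of reads alone, not the difference between mice.

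Sema3c, whose protein binds both neuropilins, measured 1.76, 3.62, 4.41 and 2.46 TPM at 2 weeks, with WT sham first, then WT DMM, then the sham and DMM libraries of Oscar-/-. Its values at 4 weeks, in that order, were 2.5, 2.95, 4.92 and 2.35 TPM. The Oscar-/- sham libraries stood above all other libraries at each week. Sema3e measured 0.42, 0.55, 0.90 and 0.26 TPM in the same order at 2 weeks, followed by 0.41, 0.59, 0.82 and 0.49 TPM at 4 weeks. These rest on 30 to 90 expected counts, so that the counting SE of its genotype contrast was 0.39 at both weeks. For Sema3a the order gave 0.73, 1.33, 1.71 and 0.94 TPM at 2 weeks, then 1.5, 1.19, 2.37 and 1.45 TPM at 4 weeks. It was the only 1 of the 10 genes that was lower after DMM than after sham in WT on TPM, at 4 weeks, by -0.33 (SE 0.21) on the log2 scale.

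The ligand genes of chromosome 9 were lowest in the WT sham library of 2 weeks. Sema3f, whose protein prefers neuropilin-2, stood at 1.37 TPM there and at 3.97, 3.78 and 4.01 TPM in the other libraries of that week, in the order used above. Its libraries of 4 weeks gave 2.67, 4.43, 4.02 and 2.38 TPM. Its level after DMM in Oscar-/- therefore lay near that of sham at 2 weeks and below it at 4 weeks. Sema3b had 0.69, 1.54, 1.68 and 1.02 TPM at 2 weeks, then 0.92, 1.75, 1.39 and 1.19 TPM at 4 weeks, on 42 to 90 expected counts. It was above sham after DMM in WT and below sham in Oscar-/- at both weeks.

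The neuropilin genes were higher after DMM than after sham in WT and lower in Oscar-/- at both weeks. For Nrp2 the WT libraries of 2 weeks gave 6.42 (sham) and 12.1 TPM (DMM), beside 10.2 and 9.53 TPM for Oscar-/-. Those of 4 weeks gave 7.66 and 13.1 TPM for WT, beside 12.3 and 8.77 TPM for Oscar-/-. With 705 to 1533 expected counts per library it was the best-counted of the genes that were above sham in WT and below sham in Oscar-/- at both weeks. Nrp1 had 2.67, 6.22, 5.70 and 4.75 TPM at 2 weeks, then 5.35, 6.80, 6.86 and 4.83 TPM at 4 weeks, again in the order WT sham, WT DMM, Oscar-/- sham, Oscar-/- DMM. The lowest value of both neuropilin genes was in the WT sham library of 2 weeks.

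The plexin genes were highest after DMM in WT at both weeks. Plxna2, a plexin that signals for class 3 semaphorins bound to neuropilins, had 0.73, 1.77, 1.23 and 1.49 TPM at 2 weeks, then 0.89, 1.58, 1.41 and 1.07 TPM at 4 weeks, in the same order. Plxnd1 had 19.8, 30.5, 29.7 and 26.7 TPM at 2 weeks, then 32.0, 37.1, 23.3 and 24.6 TPM at 4 weeks. Plxnd1 was the only gene of the 10 with a lower TPM in Oscar-/- than in WT after sham surgery, at 4 weeks, where the log2 ratio was -0.46 (SE 0.06). On TMM-scaled counts that ratio was 0.05. The effective length that RSEM assigned to Plxnd1, by which TPM divides and the scaled count does not, ranged from 2328 to 3330 bases between libraries.

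The genotype contrast, DIF, takes the log2(DMM/sham) ratio of Oscar-/- and subtracts the WT ratio from it. On TPM all 10 genes had a DIF below 0 at 2 weeks, as did 82.6% of the genes tested, and all 10 at 4 weeks, as did 75% of the genes tested. The median DIF of the 10 genes was -1.61 and -1.24, against -0.41 and -0.22 over all genes tested. With TMM scaling all 10 were again below 0 at both weeks, against 50.8% of the genes tested at 2 weeks and 52.3% at 4 weeks, with medians of -1.06 and -1.003 against -0.01 and -0.02. A DIF below 0 at both weeks was found for 66.6% of all genes on TPM and 37.7% with TMM. These counts describe a list made with this contrast in view, and nothing is read from them about the family.

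**Figure D2:**
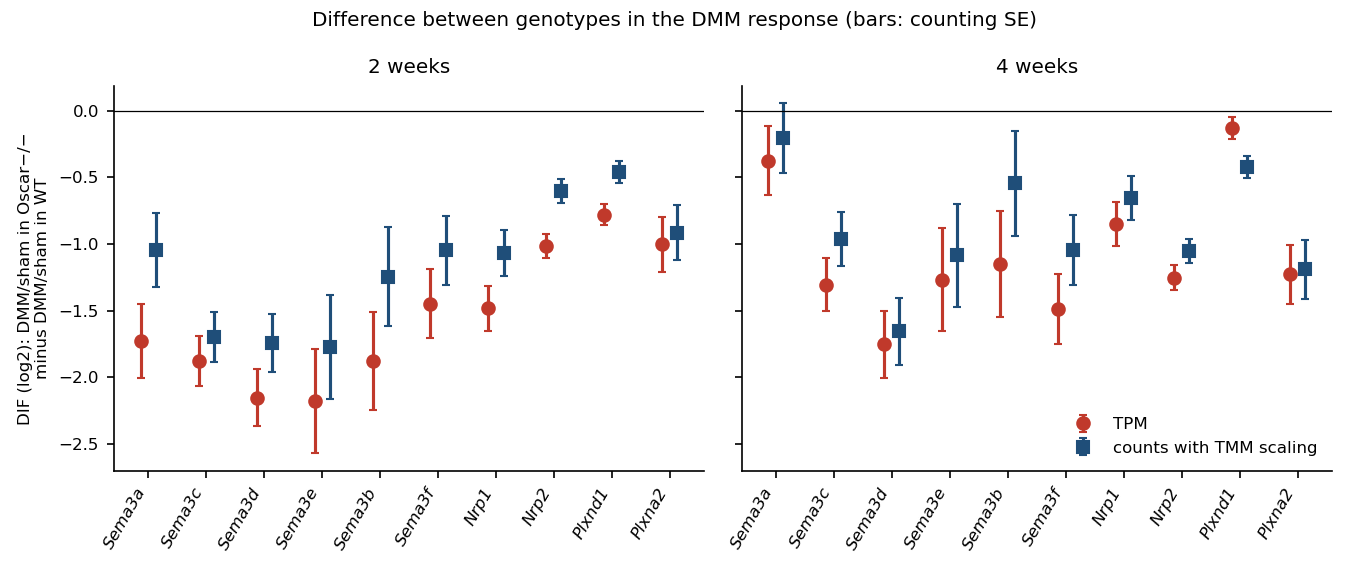
DIF (log2, vertical axis) of each gene at 2 weeks (left) and 4 weeks (right), on TPM (circles) and on TMM-scaled counts (squares), with bars of 1 counting SE in either direction. All points lie below 0. Sema3d is at -1.74 and -1.66 with TMM scaling, and Sema3a at 4 weeks and Plxnd1 on TPM at 4 weeks lie nearest to 0.

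Sema3d and Sema3e had the lowest DIF on TPM at 2 weeks, at -2.15 (SE 0.22) and -2.18 (SE 0.39). Sema3d was also lowest at 4 weeks, at -1.75 (SE 0.25). With TMM scaling Sema3d had -1.74 and -1.66, Sema3c -1.70 and -0.96, and Sema3e -1.77 and -1.08 at 2 and 4 weeks. The weeks were close for Sema3d and further apart for Sema3c and Sema3e. Sema3a had -1.04 (SE 0.28) at 2 weeks and -0.21 (SE 0.26) at 4 weeks on this scale, whereas Sema3f had -1.05 and -1.04. Nrp2 had -0.60 (SE 0.09) and -1.05 (SE 0.09), Nrp1 -1.07 (SE 0.17) and -0.65 (SE 0.16), Plxna2 -0.92 (SE 0.21) and -1.19 (SE 0.22), and Plxnd1 -0.46 (SE 0.08) and -0.42 (SE 0.08). These SEs cover the sampling of reads alone, and they give no test of DIF for genes listed with this contrast in view.

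The contrast was made up of both genotypes' responses. With TMM scaling DMM was above sham in WT for 10 of the 10 genes at 2 weeks (49.5% of the genes tested) and for 9 at 4 weeks (49%). It was below sham in Oscar-/- for 8 genes at 2 weeks (45.4%) and for all 10 at 4 weeks (51.9%). Plxnd1 and Plxna2 were the exceptions in Oscar-/- at 2 weeks, with log2 ratios of 0.19 (SE 0.06) and 0.17 (SE 0.15). In the sham libraries Oscar-/- was above WT for all 10 genes at both weeks (50.9% and 53% of the genes tested). The log2 ratio of Oscar-/- to WT sham, at 2 weeks and then 4 weeks, was 1.24 (SE 0.14) and 1.03 (SE 0.13) for Sema3c, beside 1.12 (SE 0.14) and 1.11 (SE 0.19) for Sema3d. After DMM the Oscar-/- library was below WT for all 10 genes at 2 weeks (50.1%) and for 8 at 4 weeks (51.7%). On TPM, DMM was above sham in WT for 10 and 9 genes (85.7% and 59% of the genes tested at 2 and 4 weeks) and below sham in Oscar-/- for 8 and 9 (55.8% and 75.5%). Oscar-/- was above WT after sham for 10 and 9 (82.8% and 41.5%) and below WT after DMM for 9 and 9 (70.1% and 87.7%). These 4 ratios share libraries and are not independent of each other or of DIF.

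**Figure D3:**
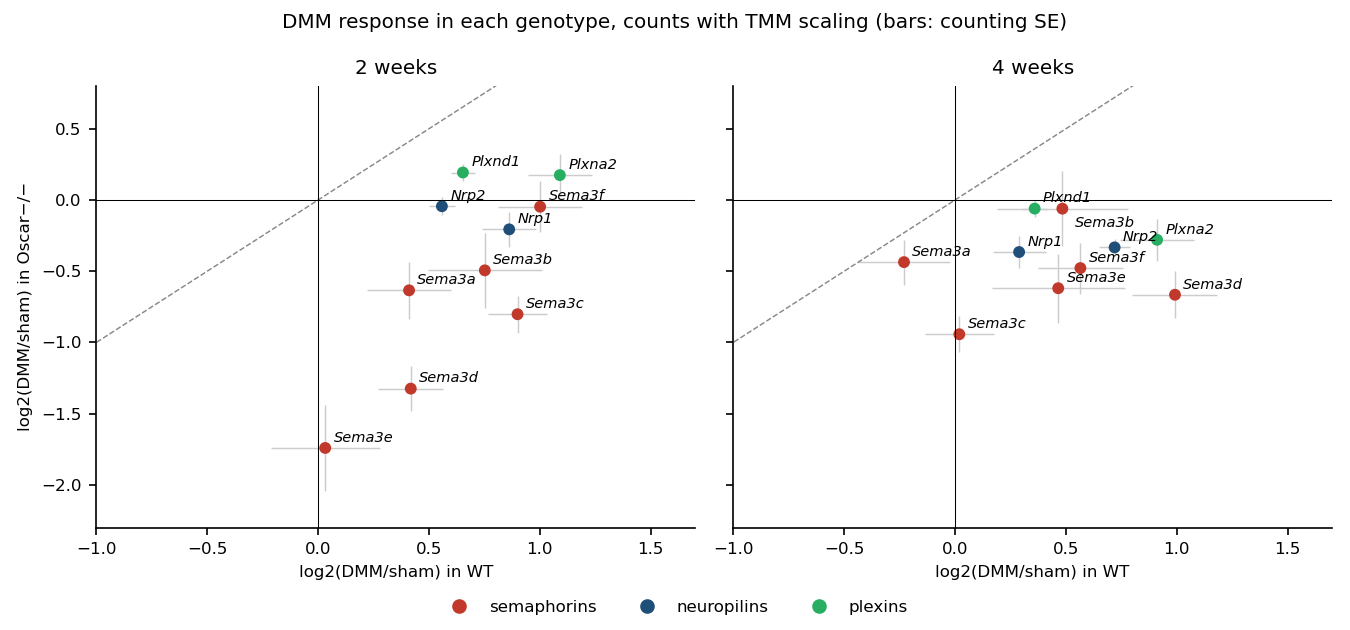
The log2(DMM/sham) ratio on TMM-scaled counts in WT (horizontal axis) against that in Oscar-/- (vertical axis) at 2 weeks (left) and 4 weeks (right), with semaphorins in red, neuropilins in blue, plexins in green and bars of 1 counting SE. The dashed line marks equal responses, and all 10 genes lie below it at both weeks. Most genes lie to the right of 0 in WT and at or below 0 in Oscar-/-.

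By the study's criteria, which require at both weeks that DMM exceeds sham in WT, that sham exceeds DMM in Oscar-/- and that DIF is under the lower quartile of all genes, 5 of the 9 genes tested were attenuated, against 10.1% of all genes tested. They were Sema3b, Sema3c, Sema3d, Nrp1 and Nrp2. With TMM scaling Sema3f joined them, which made 6 of the 9, against 8.19% of all genes tested. Sema3e, which was too low to enter the tests, met the same criteria on both scales. Opposite directions in the genotypes at both weeks, without the quartile, were found on TPM for 5 of the 9, against 27.3% of all genes tested. The list was made with this contrast in view, and nothing is read from these counts. When the genotype by surgery interaction was fitted over all 8 libraries with edgeR, the log2 coefficients of the 9 genes tested were -1.68 (SE 0.26) for Sema3d, -1.37 (SE 0.25) for Sema3c, -1.06 (SE 0.21) for Plxna2, -1.03 (SE 0.26) for Sema3f, -0.90 (SE 0.31) for Sema3b, -0.86 (SE 0.20) for Nrp1, -0.83 (SE 0.14) for Nrp2, -0.64 (SE 0.29) for Sema3a and -0.43 (SE 0.15) for Plxnd1. They restate the same contrast over both weeks, and no test of them is given.

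The estimates of the average effects of surgery, genotype and week are balanced against that contrast in this design. They were tested with edgeR's quasi-likelihood test over all 8 libraries with the other terms additive. Each p-value measures the spread left among libraries that do not repeat a condition. That spread includes the genotype by surgery difference, which was in view when the genes were listed. Opposite responses to DMM also cancel in the surgery average. A lack of calls among the 9 genes was therefore favored by how the list was made, and nothing is read from it. For surgery none of the 9 genes passed an adjusted p of 0.05, nor did any of the 12538 genes (0% in either direction), while 805 genes, or 6.42%, had an unadjusted p under 0.05. DESeq2 called 50 genes higher and 23 lower and limma 12 and 9, none of them among the 9. Plxnd1, with a log2 fold change of 0.29 (SE 0.11) and an adjusted p of 0.621 from edgeR, and Plxna2, with 0.47 (SE 0.20) and 0.735, were the genes of the 9 with an unadjusted p under 0.05. On TMM-scaled counts both were higher after DMM in 3 of the 4 pairs of sham and DMM libraries, the exception being Oscar-/- at 4 weeks.

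For genotype none of the 9 genes passed in edgeR, DESeq2 or limma. In edgeR 1 gene of all those tested was called higher (0.00798%) and 5 lower (0.0399%), and none of the 9 had an unadjusted p under 0.05, against 2.69% of all genes. Sema3a lay at that limit, with 0.41 (SE 0.18, unadjusted p = 0.0501 in edgeR), and with DESeq2 1 of the 9 was under 0.05. The edgeR fold changes ranged from -0.04 (SE 0.11) for Plxnd1 to 0.45 (SE 0.26, adjusted p = 0.9997 in edgeR) for Sema3c. For week edgeR called 700 genes higher (5.58%) and 295 lower (2.35%) at 4 weeks, and none of the 9, of which 0 had an unadjusted p under 0.05, against 27.2% of all genes. DESeq2 and limma called none of the 9 either. The lowest fold change was that of Sema3d, -0.51 (SE 0.30, adjusted p = 0.300 in edgeR), and the highest that of Sema3a, 0.13 (SE 0.18). On TMM-scaled counts Sema3d was lower at 4 weeks than at 2 weeks in all 4 combinations of genotype and surgery. On TPM this held for the sham libraries only. After DMM it went from 1.92 to 1.98 TPM in WT and from 1.14 to 1.21 TPM in Oscar-/-. Week and sequencing lane cannot be told apart.

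Other genes of semaphorin signaling were taken from 4 lists written from general knowledge, of which 53 of 64 genes were tested. These lists too were written with earlier results of these libraries known. The edgeR interaction test called 13 of the 53 lower in their DMM response in Oscar-/- (24.5%, against 3.83% of all genes tested) and none higher (against 1.41%). Of the cell marker lists described below, it called lower 8 of 12 fibroblast, 6 of 11 osteoblast and osteocyte and 5 of 12 endothelial genes. It also called lower 4 of 9 pericyte and smooth muscle, 3 of 14 chondrocyte, 1 of 7 osteoclast and 1 of 9 macrophage genes. None was called lower in the lists of other marrow and blood cells, skeletal muscle or neural cells. Over all genes 24.2% had an unadjusted p under 0.05 in this test. Among 15 other semaphorin and plexin genes 4 were lower. Sema5a, a transmembrane semaphorin, measured 0.95, 1.55, 1.83 and 1.1 TPM at 2 weeks, then 0.99, 1.57, 1.75 and 1.08 TPM at 4 weeks, so that WT DMM and Oscar-/- sham stood above the other libraries of each week. It had a log2 difference of -1.08 (SE 0.18, adjusted p = 0.0147 in edgeR), Sema7a, a membrane-anchored semaphorin that binds integrins, had -0.69 (SE 0.14, adjusted p = 0.0271), and the receptor genes Plxnb1 and Plxnb2 had -0.97 (SE 0.21) and -0.62 (SE 0.15). Among 21 genes that act below plexins 4 were lower: Dpysl3, a collapsin response mediator, with -0.64 (SE 0.14), Farp1 and Farp2, guanine nucleotide exchange factors, with -1.01 (SE 0.25) and -1.40 (SE 0.33), and Arhgap35 with -0.75 (SE 0.19). Among 12 co-receptor and VEGF genes 3 were lower, namely the integrin gene Itgav with -0.82 (SE 0.15) and the VEGF receptor genes Kdr, which the endothelial list below also holds, with -0.70 (SE 0.16) and Flt1 with -0.80 (SE 0.18). Among 5 protease genes, which include the furin family that cleaves class 3 semaphorins, Pcsk6 had -0.93 (SE 0.18) and Pcsk5 had -1.38 (SE 0.32). The adjusted p of the 13 genes lay between 0.0147 and 0.0427 in edgeR. Of the libraries of 2 weeks, leaving out WT DMM or Oscar-/- sham left 0 calls and leaving out WT sham left 7. Of those of 4 weeks, the removal of WT DMM left 0, that of Oscar-/- sham 1 and that of Oscar-/- DMM 3. The number was 6 with DESeq2, 3 with limma and 20 without TMM. Calls over all genes tested changed as well: 480 were lower in edgeR, 278 with DESeq2, 342 with limma and 896 without TMM. They also changed with the library left out, from 14 lower without WT DMM of 4 weeks to 1013 without WT sham of 4 weeks. Whether the pathway calls depend more on these choices than the calls over all genes was not tested.

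Across the 8 libraries the genes whose log2(TPM + 1) was most like that of Sema3d, among the 10835 genes whose expected count never was below 50, were Pmp22, Loxl4, Cdon, Ccdc194 and Colec12. Their Pearson r with Sema3d lay between 0.972 for Colec12 and 0.986 for Pmp22. Pmp22 encodes a myelin and epithelial membrane protein, Loxl4 a collagen cross-linking enzyme, Cdon a co-receptor for hedgehog ligands and Colec12 a scavenger receptor. The 8 points share depth and hemoglobin content, and the values are the best of a search.

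Lists of connective tissue and vessel cell markers also had a median DIF below 0. With TMM scaling the median DIF at 2 and 4 weeks was -0.91 and -1.34 over 12 fibroblast genes, -0.89 and -0.49 over 9 pericyte and smooth muscle genes, -0.56 and -0.95 over 11 osteoblast and osteocyte genes, -0.35 and -1.19 over 14 chondrocyte genes, -0.35 and -0.89 over 7 osteoclast genes and -0.58 and -0.35 over 12 endothelial genes. The 9 tested genes of the semaphorin list had -1.05 and -0.96. All fibroblast genes tested were below 0 at both weeks on this scale. Summed over the fibroblast genes, the 4 libraries of 2 weeks held 820, 2117, 1590 and 1628 TPM, again from WT sham to Oscar-/- DMM, and those of 4 weeks 778, 1832, 1215 and 976 TPM. The endothelial sum was 111, 203, 154 and 167 TPM at 2 weeks, then 150, 218, 155 and 171 TPM at 4 weeks. The fibroblast and endothelial sums were lowest in the WT sham library and highest in the WT DMM library of each week. The chondrocyte sum, in the same order, was 1199, 972, 1899 and 988 TPM at 2 weeks, then 856, 1188, 1456 and 827 TPM at 4 weeks. It was highest in the Oscar-/- sham library and lower after DMM in Oscar-/- at each week.

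When each library was divided by its fibroblast sum, the median DIF of the 10 genes was -0.27 at 2 weeks and 0.31 at 4 weeks, where only Sema3d, at -0.20, was below 0. Divided by the endothelial sum it was -0.86 and -0.84, with 10 genes below 0 at 2 weeks and 8 at 4 weeks. These scalings were chosen after the data were seen, and no other list sum was used as a divisor. The osteoblast and osteocyte sum, for one, had a DIF of -1.09 and -1.19 on TPM at 2 and 4 weeks. Few genes carried the fibroblast sum: in WT sham at 2 weeks Dcn, Col1a2 and Col1a1 held 347, 232 and 145 of 820 TPM. The lists of marrow and blood cells differed: the median DIF was -0.22 and -0.07 for 9 macrophage genes, -0.06 and -0.12 for 7 marrow stroma genes, 0.21 and 0.08 for 9 neutrophil genes, 0.14 and -0.19 for 8 B cell genes, 0.67 and 0.59 for 9 erythroid genes and 0.75 and 1.09 for 7 platelet and megakaryocyte genes. It was 2.72 and -0.97 for 7 skeletal muscle genes and 0.04 and -0.00 for 4 Schwann cell and neural genes. The part of cell composition in the values of the 10 genes was not tested beyond these scalings.

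**Figure D4:**
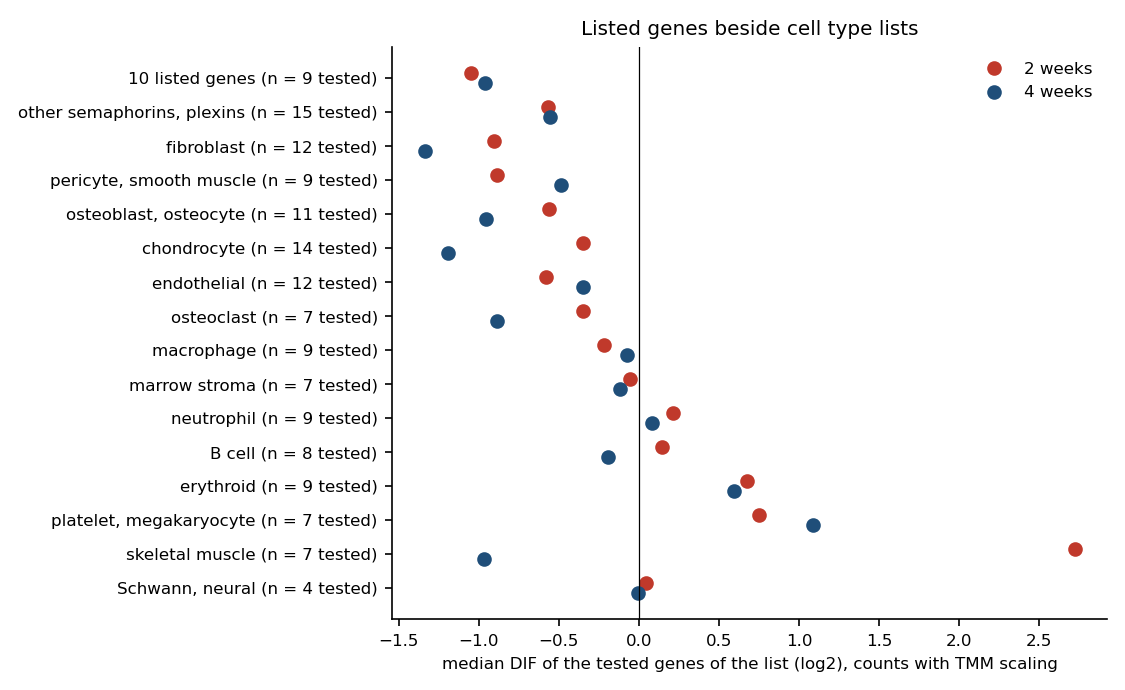
Median DIF (log2, horizontal axis) on TMM-scaled counts over the tested genes of each list, at 2 weeks (red) and 4 weeks (blue). The 9 tested semaphorin, neuropilin and plexin genes, at -1.05 and -0.96, lie beside the fibroblast list at -0.91 and -1.34, while erythroid and platelet lists lie above 0.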

How the data were processed

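RNA from 8 pools of 10 articular cartilages each was sequenced by the authors as paired-end reads from a stranded mRNA library, aligned with STAR 2.6.0a and quantified with RSEM 1.2.17. The deposited values used here are RSEM expected counts and TPM per gene. The processing notes also name FastQC 0.11.8 and a human genome build, whereas all identifiers are those of mouse genes, and coordinates here come from GENCODE M21.

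Protein-coding genes that exceed 1 TPM in some library were kept, a filter taken from the authors' methods and applied here to the deposited TPM with GENCODE M21 gene types, which left 12538 genes. Expected counts were rounded and tested with edgeR 4.0.16 (TMM factors, quasi-likelihood, Benjamini-Hochberg adjustment over all genes tested, threshold 0.05), with week, genotype and surgery as additive terms (4 residual degrees of freedom) and with a genotype by surgery interaction (3). With 1 library per condition, p-values measure the spread left by these terms. Each log2 ratio has a counting SE from its expected counts. DESeq2 1.42.0, limma 3.58.1 on log2(TPM + 1), other scalings and filters, and leaving out each library were the alternatives. The scripts were tested on simulated data in R 4.3.3.

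The 10 genes and all gene lists were chosen with earlier results of these data known. All 10 are named. Of the pathway lists, up to 4 genes each were named by lowest p among those called, and the 5 genes with the highest Pearson r with Sema3d among genes whose expected count never was below 50. The genes named for week were chosen after their values were seen. Total depth was 13189181 to 18533609 expected counts per library. SEs of ratios and of DIF cover counting error only. SEs of edgeR fold changes and interaction coefficients come from its quasi-likelihood fit and include the spread left between libraries.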

Additional observations from a re-analysis of the deposited data

Results flagged for a closer look

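In 6 of the 10 genes DMM stood above sham in WT and below sham in Oscar-/- at both weeks on TPM, so that the genotypes moved in opposite directions in every pair of libraries. The same was found for 27.3% of all genes tested, among which Sema3e, 1 of the 6, is not counted. The mean DIF over the weeks was -1.95 for Sema3d, -1.72 for Sema3e, -1.59 for Sema3c, -1.52 for Sema3b, -1.17 for Nrp1 and -1.14 for Nrp2. The difference is given without a test for these genes, which were listed with this contrast in view.

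The lists of other pathway genes were written with earlier results of these libraries known, so their share of calls is a description. Among these genes, the edgeR interaction test called the DMM response different between the genotypes for 13 of 53 (24.5% lower), against 3.83% of all genes called lower and 1.41% called higher. The same test called lower 8 of 12 fibroblast genes and 0 of 9 neutrophil genes. The number of pathway genes called was 0 to 18 when 1 library was left out, and 0 without WT DMM of either week or without Oscar-/- sham of 2 weeks. The log2 difference was -1.40 for Farp2, -1.38 for Pcsk5, -1.08 for Sema5a, -1.01 for Farp1, -0.97 for Plxnb1, -0.93 for Pcsk6, -0.82 for Itgav, -0.80 for Flt1, -0.75 for Arhgap35, -0.70 for Kdr, -0.69 for Sema7a, -0.64 for Dpysl3 and -0.62 for Plxnb2.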

How the results depend on the processing

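The labels give no replicate numbers, so that no replicate block could be fitted. With each combination of genotype and week as a block, which pairs its sham and DMM libraries (3 residual degrees of freedom, chosen after seeing the data), edgeR called 0 genes for surgery, with 726 at an unadjusted p under 0.05. None of the 9 tested genes was called for surgery, genotype or week under any alternative. The sign of the uncalled week fold changes depended on the scale. With limma on log2(TPM + 1) it was above 0 for Sema3b (0.063), Sema3c (0.050), Sema3f (0.065), Nrp2 (0.11) and Plxnd1 (0.12), and on total counts without TMM for Sema3f (0.00037) and Plxnd1 (0.043). Leaving out 1 library at a time gave surgery ranges of -0.46 to 0.16 for Sema3d and -0.063 to 0.30 for Nrp1. For genotype they were -0.037 to 0.58 for Sema3d, -0.021 to 0.32 for Nrp1, -0.0084 to 0.28 for Nrp2, -0.16 to 0.072 for Plxnd1 and -0.034 to 0.34 for Plxna2. For week they were -0.019 to 0.37 for Sema3a, -0.49 to 0.065 for Sema3c, -0.33 to 0.089 for Sema3f, -0.15 to 0.21 for Nrp1 and -0.20 to 0.026 for Plxnd1.

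Of the other pathway genes, 4 were called higher and 0 lower at 4 weeks, against 12 higher with limma, 1 lower with DESeq2 and 1 lower without the TPM filter, and 0 to 4 higher and 0 to 1 lower without 1 library. Over all 12538 genes tested limma called 2639 higher at 4 weeks, where edgeR called 700. The interaction calls among the other pathway genes were 6 with DESeq2, 20 without TMM, 3 with limma and 0 to 18 without 1 library.

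The median DIF of the 10 genes at 2 weeks was -1.06 with TMM, -0.95 on log2(TPM + 1), -0.86 over the endothelial sum, -0.27 over the fibroblast sum and -1.60 to -0.74 without 1 library. At 4 weeks it was -0.70 on log2(TPM + 1) and 0.31 over the fibroblast sum, where 1 gene was below 0. Over the fibroblast sum DIF was above 0 at 2 weeks for Nrp2 (0.32), Plxnd1 (0.56) and Plxna2 (0.33), and at 4 weeks for Sema3b (0.40), Sema3c (0.25), Sema3e (0.28), Sema3f (0.066), Nrp1 (0.70), Nrp2 (0.30) and Plxna2 (0.33), and likewise for Sema3a (1.18) and Plxnd1 (1.42). The cause was not tested. The interaction alternatives and both list sums were chosen after seeing the data. Sema3e and Sema3b rest on fewer than 100 expected counts per library, and their counting SEs were the widest.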

Other observations

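Of the 53 other pathway genes tested, 4 were higher at 4 weeks than at 2 weeks in edgeR (7.55%), a share near the 5.58% of all genes called higher: Sema4d, a semaphorin of lymphocytes and osteoclasts, with a log2 fold change of 0.46 (SE 0.08, adjusted p = 0.0135), Fes, a tyrosine kinase that acts below plexins, with 0.40 (SE 0.08, adjusted p = 0.0151), Sema4a, with 0.38 (SE 0.07, adjusted p = 0.0159), and Plxnc1, the receptor of Sema7a, with 0.33 (SE 0.08, adjusted p = 0.0364). None was lower. Week and sequencing lane cannot be told apart in these libraries.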
